A study of Rattus norvegicus with 30 samples.

Results

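Oesophageal epithelium of zinc-deficient rats given an inhibitor of miR-31 for 20 weeks was compared with that of zinc-sufficient rats that received no inhibitor. The arrays were chosen by their titles: 5 arrays of the 20-week inhibitor group and 5 of the untreated zinc-sufficient group, 10 of the 30 arrays in the series, with 1 rat per array. The question was which transcripts differed from the zinc-sufficient level after long inhibition of miR-31. All rats of both groups were male Sprague-Dawley, entered the study at 4 weeks of age, and received the oesophageal carcinogen N-nitrosomethylbenzylamine (NMBA) from week 5 as 4 weekly intragastric doses of 2 mg/kg. The inhibitor rats ate a zinc-deficient (ZD) diet ad libitum and received an LNA-antimiR oligonucleotide in PBS through the tail vein. They received a loading dose of 20 mg/kg, then 9 maintenance doses of 6 mg/kg over the first 5 weeks, then 20 more doses of 6 mg/kg over the 15 weeks from the first NMBA dose. The zinc-sufficient (ZS) rats were pair-fed to the deficient animals and are labelled as untreated. Tissue was taken 48 h after an animal's last antimiR injection or, per the labels, 15 weeks into NMBA exposure. Diet, feeding regime and injection therefore differed together between the 2 groups, and their parts in any difference cannot be told apart here. The labels give cohorts of 11 inhibitor and 8 ZS rats, without saying how the 5 rats of each were picked, and they give no hour of collection. The inhibitor was given to the whole animal, so no cell type was targeted.

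For reference, 3 other groups were set beside these. One was 5 untreated ZD rats of the same experiment, male, of the same strain and starting age and given the same NMBA doses. The others were 6 ZD and 4 ZS miR-31-/- rats, made with CRISPR/Cas9 in the Sprague-Dawley strain and kept in an experiment of their own. These too entered at 4 weeks of age and were given NMBA by the same scheme. The inhibitor is directed at miR-31, whose mature sequence is shown because every comparison concerns rats in which this RNA was either intact, inhibited or deleted. It is the RefSeq entry in assembly GRCr8, chr5:108714906-108714927 on the minus strand, 22 bases long, with the seed (bases 2 to 8) in capitals.
rno-miR-31a-5p: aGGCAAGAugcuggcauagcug

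MicroRNAs pair through the seed with sites in target mRNAs and lower the stability or translation of those mRNAs, and an antimiR binds the mature microRNA and blocks that pairing. miR-31 is abundant in squamous epithelium and is known to rise in squamous cancers. Dietary zinc deficiency in rats thickens the oesophageal epithelium, raises its proliferation and inflammation, and makes it more sensitive to NMBA. No gene tested on these arrays carried the miR-31 symbol, so the inhibition itself was not checked here.

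Values are log2 expression values, in which 1 unit is a 2-fold difference. The medians of the 20 arrays from unedited rats lay between 5.37 and 5.45, and those of the 10 knockout arrays between 5.81 and 5.93, so levels were never set against each other across these sets. Within each group of the main comparison, arrays correlated at 0.972 to 0.994 (antimiR) and 0.982 to 0.995 (ZS) across genes. All 10 squamous epithelial markers were measured and stood above 5.5 on all 10 arrays, with group means from 6.75 to 14.22, as the label of squamous epithelium has it. Markers of smooth muscle, the tissue under the epithelium, differed between groups: 15 of 15 had a lower mean in the antimiR group than in ZS, 13 at an unadjusted p under 0.05 and 0 after adjustment (limma), and their mean level ran from 7.21 to 9.50 in antimiR arrays and from 8.84 to 10.22 in ZS arrays. On untreated ZD arrays that mean level ran from 7.22 to 8.20. Array 2 of the antimiR group had the lowest smooth muscle level of the 10 arrays (7.21) and array 19 of the ZS group the highest (10.22). In bulk tissue, fewer cells of a type and less RNA per cell cannot be told apart. Skeletal muscle markers, 0 of 28 called and 0 at an unadjusted p under 0.05 (limma), ranged from 5.65 to 8.97 in antimiR arrays and from 5.30 to 8.22 in ZS arrays. Over all genes tested, 18.9% had an unadjusted p under 0.05. RNA integrity numbers were at least 8 in all samples, per the labels.

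After 20 weeks of antimiR, 516 of 14217 genes (3.63%) differed from ZS at an adjusted p under 0.05 by limma with Benjamini-Hochberg adjustment. Of these, 260 were higher (1.83%) and 256 lower (1.8%). The median size of these differences was 0.46 log2 units, 27 genes were at least 2-fold higher (0.19%) and 32 at least 2-fold lower (0.225%). The 5 antimiR and 5 ZS arrays did not overlap for 853 genes (6%), of which 352 were among the 516. At an unadjusted p under 0.05, 2685 genes differed (18.9%). For the untreated ZD rats the same test against the same ZS arrays called 1974 genes (13.9%), 986 higher (6.94%) and 988 lower (6.95%), and between antimiR and untreated ZD rats it called 92 (0.647%). The count of 516 fell to 182 without array 1, to 166 without array 2, to 241 without array 16 and to 287 without array 18. With the array's mean smooth muscle level as a covariate it was 117, and in a fit on the 10 arrays alone 140.

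The genes of the circadian clock had the highest share of called members among the 36 lists. CLOCK and BMAL1 form a pair that activates genes with E-box elements, among them the period and cryptochrome genes, whose products in turn repress the pair. The nuclear receptors NR1D1 and NR1D2 repress Bmal1, and the related factors DBP, TEF and HLF activate genes through D-box elements, at which NFIL3 competes as a repressor. Transcripts of this loop cycle over the day in most tissues, including the oesophagus. Of 17 measured clock genes, 11 were called (64.7%, against 3.63% of all genes): 3 rose and 8 fell. The list was chosen with earlier results of these data known.

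Among the output factors, Tef, a D-box activator, gave log2 levels of 7.09, 6.69, 7.31, 7.5 and 6.86 in antimiR arrays 1 to 5 and 8.20, 8.72, 8.79, 8.46 and 8.62 in ZS arrays 16 to 20. Every antimiR array lay below every ZS array, and the gap between the groups was wider than the SD of either. Tef fell by 1.47 ± 0.17 (SE; limma, adjusted p = 8.03e-05, n = 5 and 5). Dbp, the founding member of this D-box family, was at 5.32, 5.48, 6.91, 7.68 and 5.78 in antimiR arrays and at 8.31, 9.11, 9.15, 7.85 and 7.99 in ZS arrays. Its groups did not overlap either, although array 4 came close to the lowest ZS array. Dbp fell by 2.25 ± 0.43 (adjusted p = 0.005). Hlf, the third of these factors, read 6.33, 6.05, 6.77, 6.92 and 6.79 in antimiR rats and 7.93, 8.06, 8.06, 8.03 and 8.17 in ZS rats. The ZS arrays were nearly level and the antimiR arrays sat about 1 unit or more below them. Hlf fell by 1.48 ± 0.22 (adjusted p = 0.00111). Nfil3, the D-box repressor, went the other way, from 5.36 ± 0.57 in ZS to 6.28 ± 0.39 in antimiR rats (mean ± SD), a rise of 0.93 ± 0.22 (adjusted p = 0.0209), with overlapping groups.

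Among the repressors of the loop, Per2, a period gene that feeds back on CLOCK and BMAL1, was at 7.11, 7.73, 7.88, 7.55 and 7.35 in antimiR arrays and at 8.51, 9.64, 9.68, 9.32 and 9.53 in ZS arrays. The groups did not overlap, and Per2 fell by 1.81 ± 0.34 (adjusted p = 0.00444). Cry2, a cryptochrome, was at 6.01, 5.5, 6.26, 5.94 and 6.19 against 6.81, 7.03, 6.89, 6.75 and 6.84. All antimiR arrays were again the lower ones, and Cry2 fell by 0.88 ± 0.16 (adjusted p = 0.00427). Bhlhe41, an E-box repressor, was at 4.44, 4.27, 4.54, 6.99 and 4.57 against 6.41, 7.53, 7.34, 5.71 and 6.62. Here antimiR array 4 stood within the ZS range and the other antimiR arrays lay below it. Bhlhe41 fell by 1.76 ± 0.44 (adjusted p = 0.0255). Per3 fell by 1.00 ± 0.25 (adjusted p = 0.0251) and Nr1d2 by 0.85 ± 0.19 (adjusted p = 0.0121), both without overlap between groups.

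The activating arm moved the opposite way. Bmal1 was at 6.80, 6.59, 6.62, 6.55 and 7.28 in antimiR arrays and at 6.63, 5.29, 5.36, 5.81 and 5.77 in ZS arrays. A single ZS array, number 16, reached into the antimiR range. Bmal1 rose by 1.00 ± 0.22 (adjusted p = 0.0121). Clock, its partner and a published miR-31 target in the list used here, was at 10.92, 10.81, 10.91, 10.56 and 10.63 against 10.43, 10.28, 10.20, 10.16 and 10.39. Its groups did not overlap, and Clock rose by 0.48 ± 0.10 (adjusted p = 0.00689). The 6 clock genes that did not pass were Npas2 (difference 0.70, adjusted p = 0.305), Per1 (-0.37, 0.266), Cry1 (-0.27, 0.371), Nr1d1 (0.37, 0.483), Bhlhe40 (-0.088, 0.881) and Rora (-0.14, 0.791). The list's median difference was -0.37, against -0.0041 over all genes tested. The clock count was 6 with the mean level of the smooth muscle markers as a covariate and 7 without array 1 or without array 2. With that covariate the differences of the genes that no longer passed were -0.96 for Per3, 1.01 for Nfil3, -0.76 for Nr1d2, -1.52 for Bhlhe41 and 0.35 for Clock. Their adjusted p values were 0.0969, 0.0518, 0.0766, 0.135 and 0.0707 in that order. The smooth muscle level itself had a lower mean in the antimiR group than in ZS, so its part in the clock differences was not tested apart from that of the group. Dbp (-2.19, adjusted p = 0.0305) and Bmal1 (1.08, 0.0348) passed with the covariate and not in the fit on the 10 arrays alone (0.0523 and 0.0728). In the fit on the 10 arrays alone the count was also 6. Tef, Per2, Hlf and Cry2 passed in each of these fits.

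**Figure D1:**
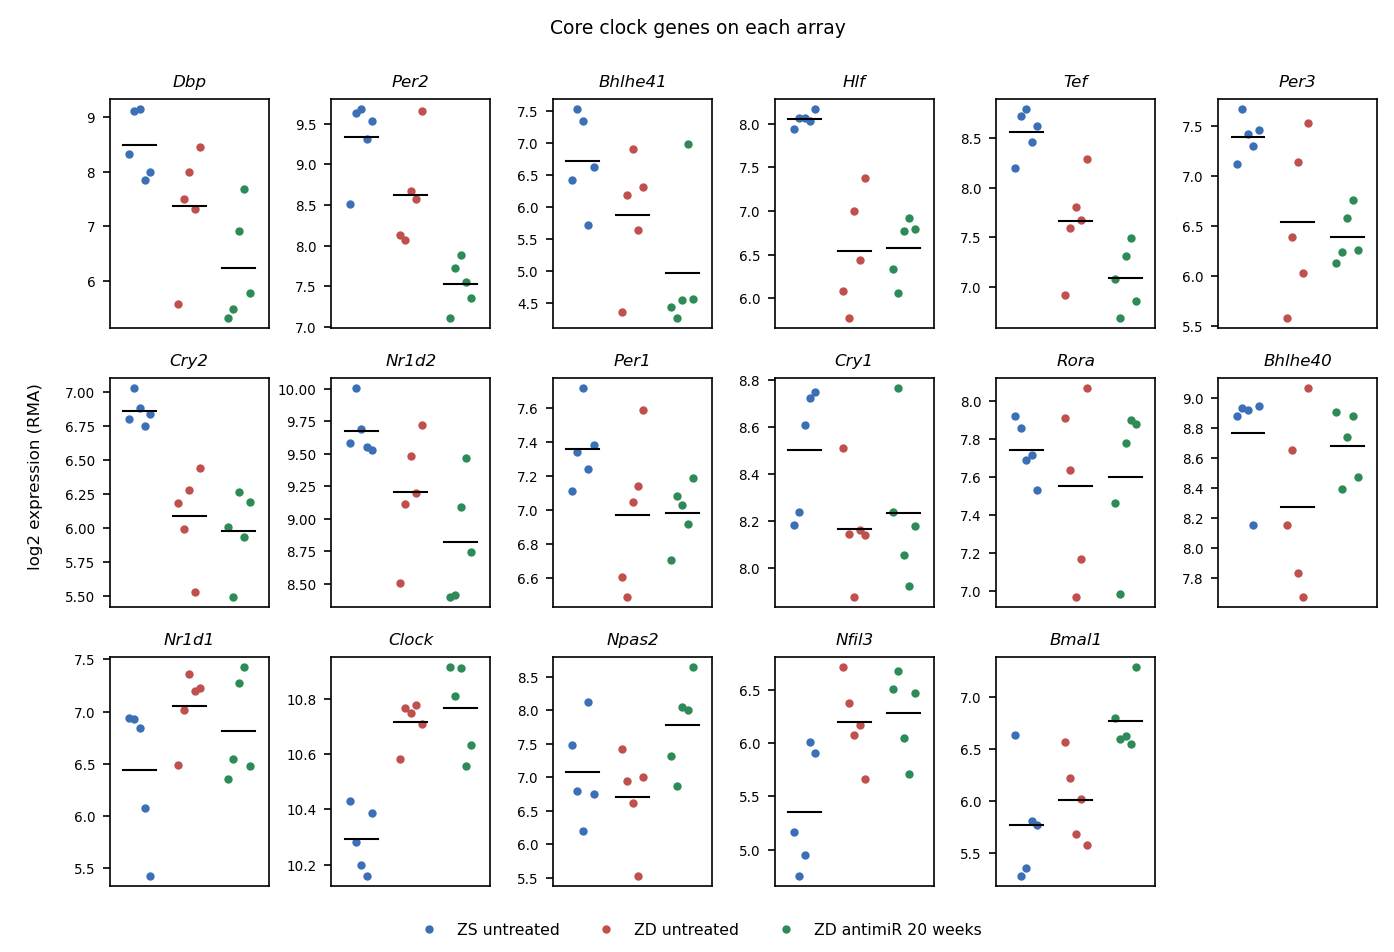
Log2 expression (y axis, a scale of its own per panel) of the 17 measured clock genes on each array, for untreated ZS, untreated ZD and 20-week antimiR rats (5 arrays each). Points are arrays and bars are group means. Tef, Hlf, Per2, Cry2, Per3, Nr1d2 and Dbp show every antimiR array below every ZS array, and Clock shows every antimiR array above them.

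In untreated ZD rats, compared with the same ZS arrays, 6 of the 17 clock genes were called, 2 higher and 4 lower, in a comparison that called 13.9% of all genes. The untreated ZD difference was -0.90 for Tef, -1.52 for Hlf, -0.77 for Cry2, -0.72 for Per2, -1.12 for Dbp and 0.24 for Bmal1. The direct test between antimiR and untreated ZD rats called 0 of the 17 by limma, with 6 of the 17 at an unadjusted p under 0.05, against 14.8% of all genes. The nearest were Bmal1 (difference 0.76, adjusted p = 0.0989), Tef (-0.57, 0.114) and Per2 (-1.09, 0.118), so a difference of these genes between inhibited and untreated ZD rats was not shown. Both comparisons share arrays with the main one and their values are given side by side only.

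Other probe sets of the same clock genes gave smaller or like differences. For Tef they gave -1.0 and -1.07, and for Hlf -1.40, -1.61 and -0.22. For Clock they gave 0.17, 0.54 and 0.48, and for Nr1d2 -0.52 and -0.80. The second probe set of Per2 gave -0.15, that of Cry2 -0.09 and that of Per3 -0.27, each on a dimmer probe set than the one used. With 1 array left out, the call was lost for Per3 without array 1, 2, 17 or 18 (adjusted p up to 0.0832), for Nr1d2 without array 1 or 2 (adjusted p up to 0.055), for Nfil3 without array 1, 2, 16, 17 or 18 (adjusted p up to 0.0866) and for Bhlhe41 without array 1, 2, 3, 17 or 18 (adjusted p up to 0.0972).

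The 250 bases before the transcription start are shown for 4 of the clock genes that fell, because these stretches hold the letters of the elements named above. They are RefSeq sequences in assembly GRCr8: Tef at chr7:115206577-115206826 on the plus strand, Per2 at chr9:99496994-99497243 on the minus strand, Bhlhe41 at chr4:180569356-180569605 on the minus strand and Cry2 at chr3:98860438-98860687 on the minus strand. Capitals mark an E-box (CACGTG), its variant (CACGTT, or AACGTG when read on the other strand) and a D-box (TTATGTAA, or TTACATAA on the other strand).
Tef: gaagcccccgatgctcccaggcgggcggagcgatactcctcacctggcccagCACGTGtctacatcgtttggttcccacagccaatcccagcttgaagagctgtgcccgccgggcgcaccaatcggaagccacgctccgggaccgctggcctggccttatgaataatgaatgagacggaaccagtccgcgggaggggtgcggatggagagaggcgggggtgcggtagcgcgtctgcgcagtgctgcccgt
Per2: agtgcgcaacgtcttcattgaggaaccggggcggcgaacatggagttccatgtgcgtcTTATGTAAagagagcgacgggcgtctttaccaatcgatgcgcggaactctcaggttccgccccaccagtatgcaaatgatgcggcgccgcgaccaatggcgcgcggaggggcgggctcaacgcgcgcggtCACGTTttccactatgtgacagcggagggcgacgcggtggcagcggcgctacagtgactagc
Bhlhe41: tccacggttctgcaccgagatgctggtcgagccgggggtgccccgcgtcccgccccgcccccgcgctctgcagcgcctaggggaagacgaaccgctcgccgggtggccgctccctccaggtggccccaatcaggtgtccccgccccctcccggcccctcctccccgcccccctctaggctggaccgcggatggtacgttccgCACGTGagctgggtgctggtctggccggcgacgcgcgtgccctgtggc
Cry2: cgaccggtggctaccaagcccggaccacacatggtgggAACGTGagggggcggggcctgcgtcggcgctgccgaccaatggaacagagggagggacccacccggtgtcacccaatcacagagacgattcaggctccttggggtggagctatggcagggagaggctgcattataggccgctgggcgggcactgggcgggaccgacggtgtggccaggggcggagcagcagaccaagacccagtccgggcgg
The first base of the E-box lies 198 bases before the start in Tef and 48 before it in Bhlhe41. In Per2 the E-box variant begins 62 bases and the D-box 192 bases before the start, and in Cry2 the variant begins 212 bases before it. Both strands were searched over 300 bases (250 before the start and 50 after it) in 33469 promoter windows. The E-box occurred in 6.42% of all windows, the variant in 4.83%, the D-box in 0.893% and any of the 3 in 11.8%. Of the 15 clock genes in the table, 4 held the E-box, 3 the variant, 1 the D-box and 6 any of them. A gene counted if any of its windows matched, so these counts and the shares per window are in unlike units. The 6 were Bhlhe40, Bhlhe41, Cry2, Nr1d1, Per2 and Tef, of which Bhlhe40 and Nr1d1 were not called between antimiR and ZS rats. The letters may overlap other motifs, and a match describes the sequence and is no evidence of binding.

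Among called genes whose groups did not overlap, the largest increases outside the clock included an ion channel, damage-response genes, an epithelial protease, a homeobox factor and lipid-handling genes. Cftr, a chloride channel of secretory epithelia, was at 6.33, 7.77, 5.73, 4.38 and 4.05 in antimiR arrays and at 3.94, 3.73, 3.71, 3.56 and 3.82 in ZS arrays. The ZS arrays were all low and close together, whereas the antimiR arrays spanned more than 3 units. Cftr rose by 1.90 ± 0.48 (adjusted p = 0.0254). Gadd45a, a stress sensor induced by DNA damage, was at 8.90, 7.97, 9.41, 9.39 and 8.40 against 7.20, 6.73, 7.05, 7.14 and 6.89. The groups did not overlap, and Gadd45a rose by 1.81 ± 0.32, a 3.51-fold difference (adjusted p = 0.00309). Its relative Gadd45b was at 9.29, 8.86, 9.15, 9.18 and 8.61 against 8.09, 7.77, 8.13, 7.64 and 7.94. It too was higher on all antimiR arrays and rose by 1.1 ± 0.15 (adjusted p = 0.000556).

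Tmprss11d, a membrane serine protease of squamous and airway epithelium, was at 9.05, 9.64, 8.16, 8.34 and 7.87 in antimiR arrays and at 6.78, 7.34, 7.70, 5.66 and 7.16 in ZS arrays. All antimiR arrays were higher, arrays 1 and 2 the most, and Tmprss11d rose by 1.68 ± 0.36 (adjusted p = 0.0104). Irx4, an Iroquois homeobox transcription factor, was at 7.07, 6.79, 6.77, 6.08 and 6.46 against 5.12, 5.76, 5.13, 3.92 and 4.84. It rose by 1.68 ± 0.27 (adjusted p = 0.00127) on the brighter probe set, while the dim second one gave 0.0059. Ttpa, which binds vitamin E and moves it between membranes, was at 8.61, 8.24, 7.76, 7.77 and 7.58 against 6.49, 6.82, 6.92, 5.99 and 6.67. It rose by 1.41 ± 0.25 (adjusted p = 0.00279), and the untreated ZD rats stood about as far from ZS (1.51). Angptl4, a secreted inhibitor of lipoprotein lipase, was at 7.65, 7.10, 6.74, 7.16 and 7.55 against 5.61, 5.88, 6.44, 6.54 and 5.02. It rose by 1.34 ± 0.32 (adjusted p = 0.0192), while untreated ZD rats differed from ZS by 0.28 (adjusted p = 0.619). The direct test between antimiR and untreated ZD rats did not call Angptl4, so a difference between these groups was not shown.

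Cyp2j3, an epoxygenase of arachidonic acid, was at 8.00, 8.02, 7.78, 7.74 and 7.23 in antimiR arrays and at 6.64, 6.35, 6.28, 6.72 and 6.62 in ZS arrays. No array of one group entered the range of the other, and Cyp2j3 rose by 1.23 ± 0.18 (adjusted p = 0.000701) on the probe set used, while the dimmer one gave -0.079. Rps6ka6, a ribosomal S6 kinase, was at 9.13, 9.55, 8.83, 8.49 and 8.55 against 7.47, 7.68, 7.95, 8.06 and 7.79 and rose by 1.12 ± 0.19 (adjusted p = 0.00209). The remaining increases among the largest 15 without overlap were Frem3, a basement membrane protein (1.71), the adhesion molecule Tmigd1 (1.55), the protease-like Prss35 (1.17), Nabp1, which binds single-stranded DNA (1.08), the interferon-induced Ifit2 (1.05) and Lox, which cross-links collagen (1.03). With 1 array left out, the call was lost for Cftr without array 1, 2, 18 or 19 (adjusted p up to 0.102), for Frem3 without array 1, 3, 19 or 20 (adjusted p up to 0.088), for Tmigd1 without array 1, 2 or 16 (adjusted p up to 0.0753), for Angptl4 without array 1, 16 or 20 (adjusted p up to 0.0632), for Prss35 without array 1, 2, 16, 17, 18, 19 or 20 (adjusted p up to 0.106), for Ifit2 without array 1, 2, 3, 16, 17, 18, 19 or 20 (adjusted p up to 0.182) and for Lox without array 1, 3, 5, 16, 18 or 19 (adjusted p up to 0.0791). Tmprss11d (1.15, adjusted p = 0.0855) and Nabp1 (0.79, 0.0605) passed in those fits but not with smooth muscle level as a covariate, and Tmprss11d not in the fit on the 10 arrays alone either. Gadd45a, Gadd45b, Irx4, Ttpa, Cyp2j3 and Rps6ka6 passed in all 10 fits with 1 array left out and in the 10 other settings, the smooth muscle covariate included.

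**Figure D2:**
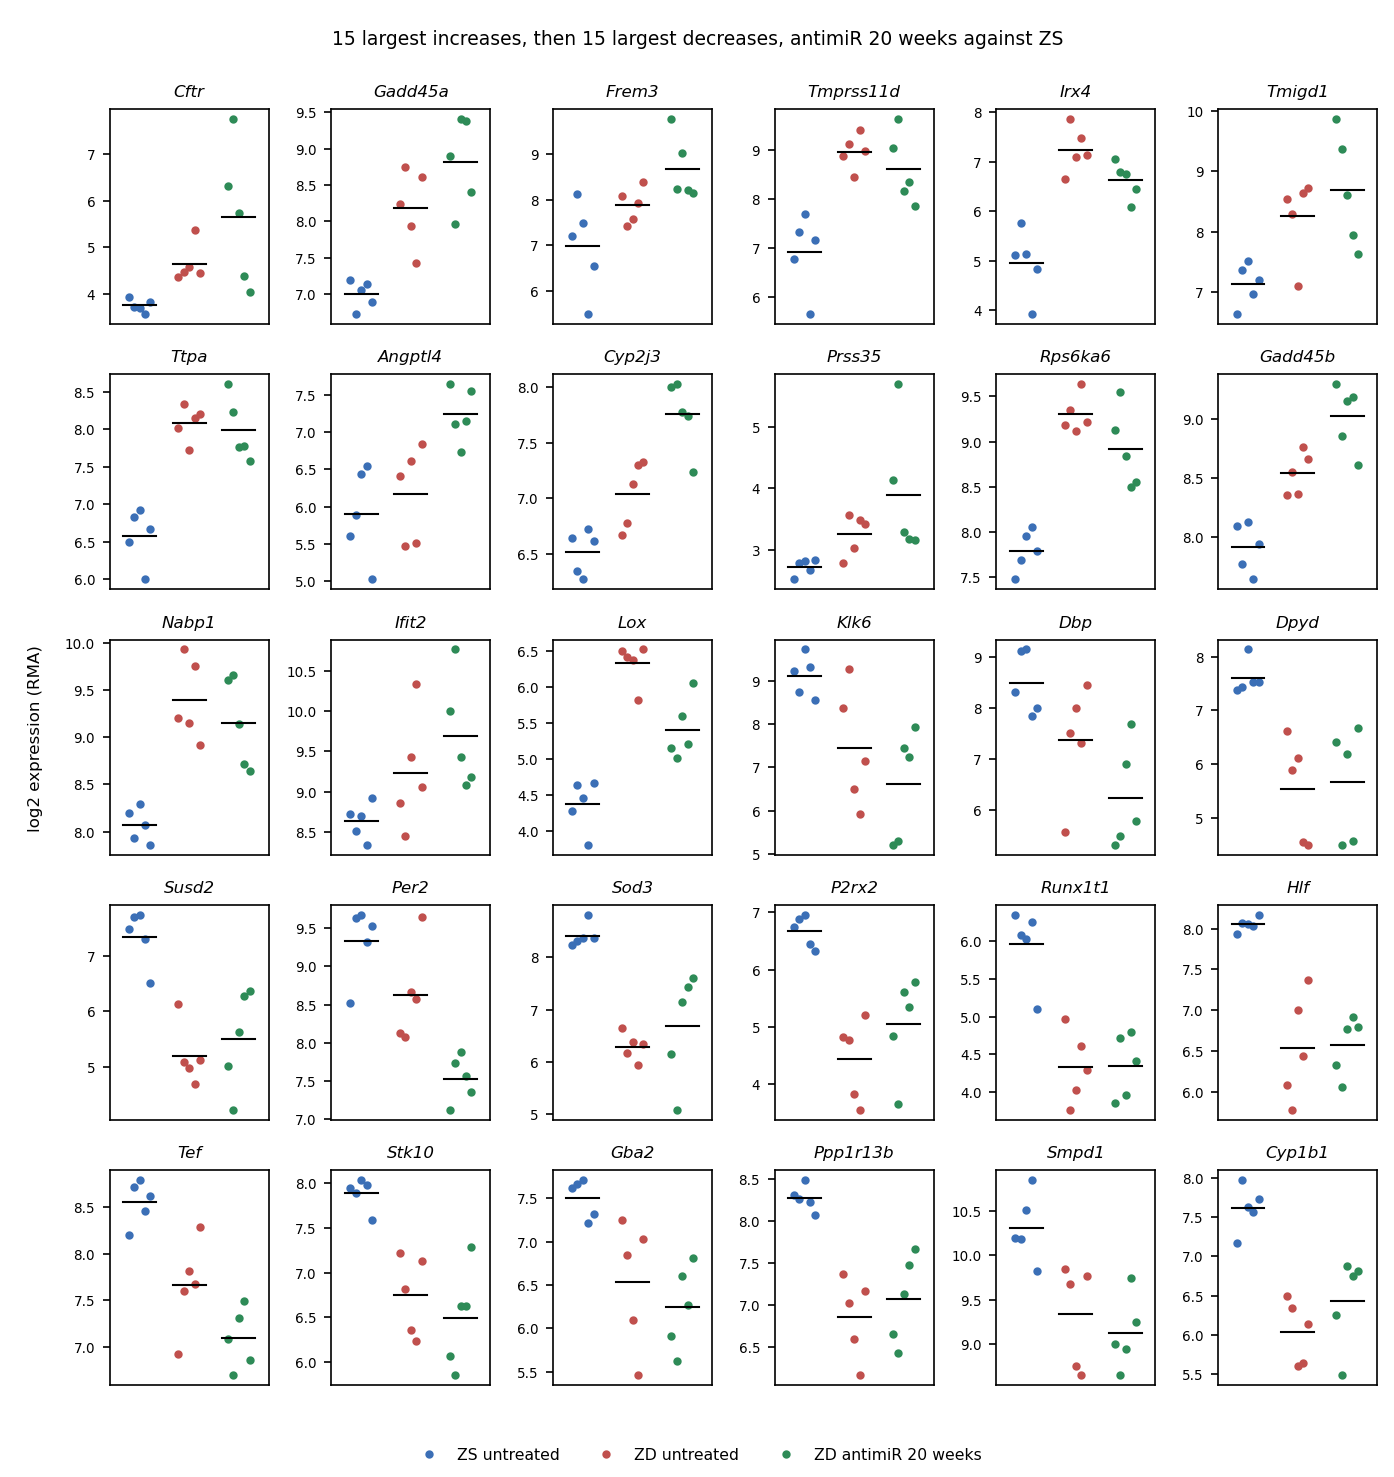
Log2 expression (y axis, a scale of its own per panel) on each array for the 15 largest increases and 15 largest decreases between 20-week antimiR and ZS rats that passed the test without overlap, with untreated ZD rats between them (5 arrays each, bars are means). Cftr and Prss35 vary widely among antimiR arrays, while Gadd45b and Cyp2j3 stay in narrow ranges above ZS.

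Among called genes without overlap, the largest decreases outside the clock took in an epidermal protease, a pyrimidine-degrading enzyme, an extracellular antioxidant and an ATP-gated channel. Klk6, a kallikrein protease of stratified epithelium, was at 5.22, 5.30, 7.46, 7.25 and 7.92 in antimiR arrays and at 9.22, 8.73, 9.72, 9.33 and 8.55 in ZS arrays. Arrays 1 and 2 were the lowest and arrays 3 to 5 lay between them and the ZS arrays. Klk6 fell by 2.48 ± 0.57 (adjusted p = 0.0163), the largest decrease of all genes that passed without overlap. Sod3, the extracellular superoxide dismutase, was at 6.16, 5.08, 7.16, 7.43 and 7.61 against 8.23, 8.30, 8.36, 8.81 and 8.36. It fell by 1.73 ± 0.35 (adjusted p = 0.00679), and with smooth muscle level as a covariate the difference was -0.98 (adjusted p = 0.0135). In the fit on the 10 arrays alone Sod3 did not pass (adjusted p = 0.0728). Dpyd, which starts the breakdown of pyrimidines, was at 6.41, 4.51, 6.19, 4.56 and 6.66 against 7.38, 7.43, 8.13, 7.54 and 7.53. Its antimiR arrays split widely, and the fall of 1.94 ± 0.55 had an adjusted p of 0.0472.

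Runx1t1, a transcriptional co-repressor, was at 3.85, 4.71, 3.97, 4.79 and 4.42 in antimiR arrays and at 6.35, 6.08, 6.03, 6.26 and 5.11 in ZS arrays. It fell by 1.62 ± 0.31 (adjusted p = 0.005), and its 3 other probe sets gave -1.1, -1.04 and -1.47. P2rx2, a cation channel opened by ATP, was at 4.84, 3.67, 5.62, 5.35 and 5.79 against 6.74, 6.89, 6.96, 6.44 and 6.33. It fell by 1.62 ± 0.35 (adjusted p = 0.0118), and its other probe sets gave -0.78 and -1.46. Ppp1r13b, a p53-binding protein, was at 6.65, 6.43, 7.13, 7.48 and 7.67 against 8.31, 8.27, 8.49, 8.23 and 8.07 and fell by 1.20 ± 0.22 (adjusted p = 0.00444). Stk10, a serine-threonine kinase, was at 6.06, 5.85, 6.63, 6.63 and 7.28 against 7.95, 7.89, 8.03, 7.98 and 7.59. It fell by 1.40 ± 0.27 (adjusted p = 0.0051).

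Both glucosylceramidase Gba2 (-1.26) and acid sphingomyelinase Smpd1 (-1.19), which break down sphingolipids, were among the 15 largest decreases without overlap, with Susd2, a membrane protein with a sushi domain (-1.85), and Cyp1b1, a cytochrome that oxidizes foreign compounds and oestrogens (-1.17). The dim second probe set of Susd2 gave -0.20. Smpd1 was at 9.00, 8.65, 8.94, 9.74 and 9.25 against 10.19, 10.18, 10.51, 10.85 and 9.82, with array 4 close below ZS array 20. With 1 array left out, the call was lost for Klk6 without array 1 or 2 (adjusted p up to 0.0735), for Dpyd without array 1, 2, 3, 4, 16, 17, 18, 19 or 20 (adjusted p up to 0.167) and for Gba2 without array 1, 2, 16, 17, 18 or 20 (adjusted p up to 0.127). With smooth muscle level as a covariate it was lost for Smpd1 (-1.02, adjusted p = 0.0761), and both there and in the fit on the 10 arrays alone for P2rx2 (-1.42, 0.0783), Susd2 (-1.49, 0.0681) and Cyp1b1 (-0.90, 0.0681). Runx1t1, Stk10 and Ppp1r13b passed in all 20 alternative fits.

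Published miR-31 targets were examined as a list because an inhibitor would act on them directly. Of 33 measured, 5 were called (15.2%, against 3.63% of all genes): Lats2, Clock and Cyp2j3 rose, and Stk40 and Bap1 fell. The place of Cyp2j3 in this list is uncertain. The direct test between antimiR and untreated ZD rats called 0 of the 33 by limma, with 3 at an unadjusted p under 0.05, against 14.8% of all genes. The list's median difference was -0.053. Lats2, a kinase of the Hippo pathway, was at 9.75, 9.43, 9.70, 9.91 and 9.31 in antimiR arrays and at 9.12, 9.19, 9.10, 9.26 and 9.04 in ZS arrays. It was higher on every antimiR array and rose by 0.48 ± 0.11 (adjusted p = 0.0135). In untreated ZD rats it stood 0.038 from ZS (adjusted p = 0.864), and the direct difference between antimiR and untreated ZD rats was 0.44 (adjusted p = 0.0506). Lats2 was picked out after its values were seen, and the fit on the 10 arrays alone did not call it.

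Stk40, a pseudokinase linked to NF-kB signalling, was at 6.84, 7.03, 6.99, 6.99 and 7.16 in antimiR arrays and at 7.40, 7.33, 7.55, 7.57 and 7.39 in ZS arrays. It was lower on every antimiR array and fell by 0.45 ± 0.08 (adjusted p = 0.00339), and the untreated ZD rats stood about as far from ZS (-0.40). Bap1, a nuclear deubiquitinase and tumour suppressor, was at 8.22, 8.04, 8.38, 8.34 and 8.27 against 8.61, 8.61, 8.63, 8.71 and 8.61. It fell by 0.38 ± 0.06 (adjusted p = 0.00121), and untreated ZD rats differed from ZS by -0.42. Egln3, a prolyl hydroxylase that marks hypoxia-inducible factors for degradation, did not pass: its levels were 9.03, 8.59, 9.07, 9.03 and 9.44 against 9.26, 9.47, 9.75, 8.68 and 9.38, a difference of -0.28 (adjusted p = 0.558), and the untreated ZD difference was -0.91 (adjusted p = 0.00913).

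**Figure D3:**
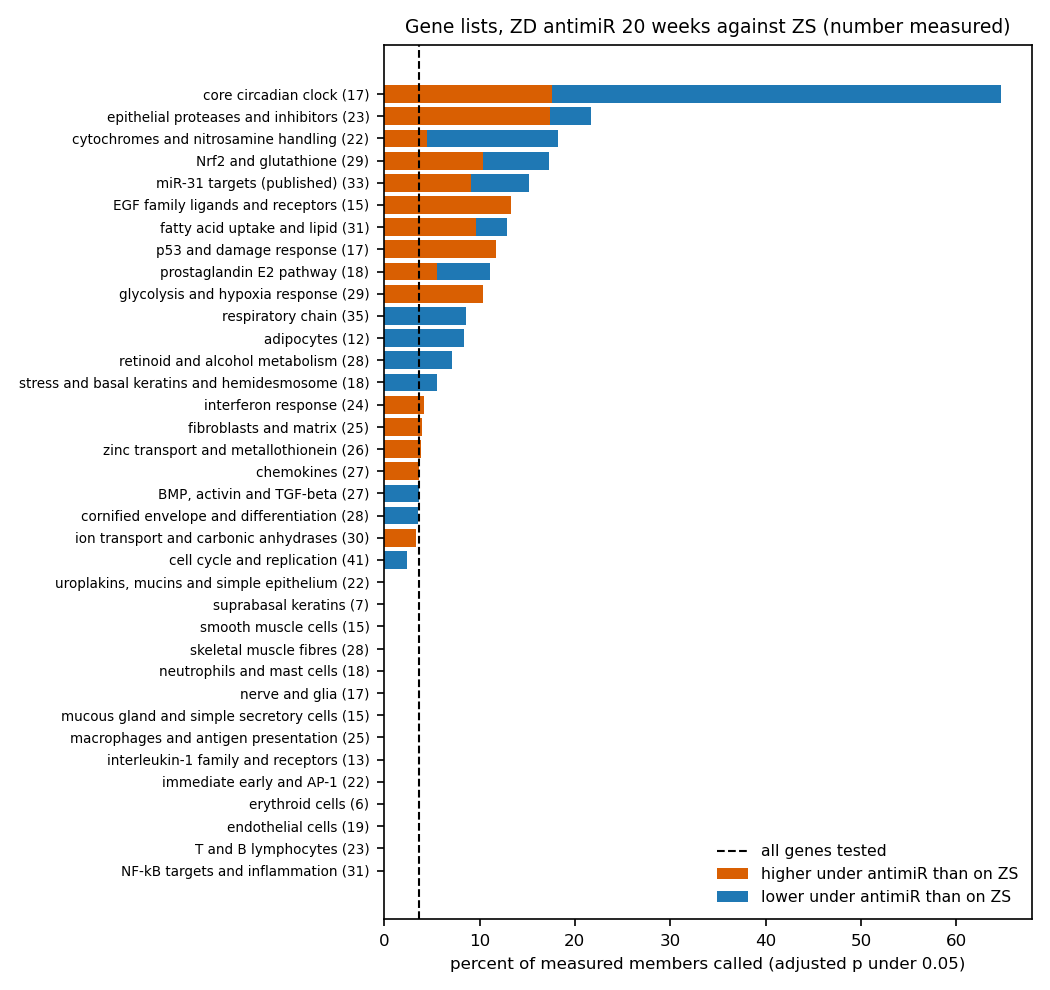
Share of each list's measured members (number in brackets) that were called between 20-week antimiR and ZS rats, higher members in orange and lower in blue. The dashed line is the share over all genes tested, 3.63%. The clock list reaches 64.7% and 14 lists have no called member.

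Of the zinc transport and metallothionein list, 1 of 26 members passed (3.85%, against 3.63% of all genes). Slc39a10, a zinc importer of the plasma membrane, was at 10.61, 11.11, 10.36, 10.13 and 9.06 in antimiR arrays and at 8.95, 9.22, 9.08, 9.23 and 9.12 in ZS arrays. Arrays 1 to 4 stood above the ZS range and array 5 within it. Slc39a10 rose by 1.13 ± 0.27 (adjusted p = 0.0196), and untreated ZD rats differed by 1.19. The importer Slc39a4, best known from the intestine, differed by -0.12 (adjusted p = 0.611), and the metallothioneins, which bind zinc, by 0.13 for Mt1 (adjusted p = 0.739) and 0.24 for Mt2A (adjusted p = 0.692). The call of Slc39a10 was lost without array 1, 2 or 16 (adjusted p up to 0.0907).

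Of 31 NF-kB targets and inflammatory genes 0 were called by limma and 5 had an unadjusted p under 0.05, against 18.9% of all genes. The list's median difference was -0.0052. In untreated ZD rats 10 were called, where 13.9% of all genes were called. The direct test between antimiR and untreated ZD rats called 3 of the 31 by limma (0.647% of all genes). In that test 12 had an unadjusted p under 0.05, against 14.8% of all genes. The mean level of this list was 6.23 to 6.62 in antimiR arrays and 6.07 to 6.44 in ZS arrays, and 6.45 to 7.25 in untreated ZD arrays. S100a8, a calcium-binding alarmin of neutrophils and stressed keratinocytes, was at 8.30, 10.07, 5.94, 6.41 and 7.09 against 6.25, 7.21, 9.28, 3.84 and 6.58. Both groups spanned more than 4 units and overlapped, and the difference of 0.93 had an adjusted p of 0.669. Its partner S100a9 differed by -1.14 (adjusted p = 0.642). Ptgs2, the inducible cyclooxygenase, was at 2.91, 3.53, 3.44, 2.78 and 2.79 against 3.08, 3.26, 3.04, 3.04 and 3.09, a difference of -0.013 (adjusted p = 0.995). On untreated ZD arrays it was at 6.86, 9.14, 7.41, 8.29 and 3.15, 4 of them above the range of the antimiR arrays and array 15 within it. Of 13 interleukin-1 family genes 0 were called by limma (3 at an unadjusted p under 0.05), and of 22 immediate early genes 0 (3 unadjusted). Of 24 interferon response genes 1 was called, Ifit2 (4.17%, against 3.63% of all genes). Of 27 chemokine genes 1 passed (3.7%): Cxcl14, made by resting epithelium. It rose by 0.91 ± 0.25 (adjusted p = 0.0369), while its dimmer probe set gave 0.069. In the prostaglandin list of 18 genes, 2 were called (11.1%). Abcc4, an exporter of prostaglandins and cyclic nucleotides, rose by 0.63 (adjusted p = 0.0434). Alox5, which starts leukotriene synthesis, fell by 0.46 (adjusted p = 0.0305). Leaving out 1 array ended the call of Cxcl14 without array 1, 2, 16, 18, 19 or 20 (adjusted p up to 0.149), that of Abcc4 without array 1, 2, 3, 16, 18, 19 or 20 (adjusted p up to 0.171) and that of Alox5 without array 1, 2, 17, 19 or 20 (adjusted p up to 0.0961).

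Genes of glycolysis and the hypoxia response rose in 3 of 29 cases and fell in none (10.3% called, against 3.63% of all genes). Bnip3, a mitochondrial receptor of autophagy, was at 9.53, 9.57, 8.61, 9.24 and 8.55 in antimiR arrays and at 7.91, 8.21, 8.28, 8.16 and 8.25 in ZS arrays. The groups did not overlap, and Bnip3 rose by 0.94 ± 0.23 (adjusted p = 0.0233). Pfkfb3, which makes an activator of glycolysis, rose by 0.67 (adjusted p = 0.0287), and Hif1a, the oxygen-regulated subunit of the hypoxia factor, by 0.47 (adjusted p = 0.0414), both with overlap. The other, dimmer probe sets of Pfkfb3 gave 0.069 and 0.016. The glucose transporter Slc2a1 differed by 0.48 and did not pass (adjusted p = 0.0668). The median of the list was 0.044, against 0.44 in untreated ZD rats. The direct test between antimiR and untreated ZD rats called 3 of the 29 by limma (0.647% of all genes). In that test 18 had an unadjusted p under 0.05, against 14.8% of all genes. Calls against ZS did not hold with some arrays left out: for Bnip3 without array 1, 2 or 16 (adjusted p up to 0.0961), for Pfkfb3 without array 1, 2, 16, 19 or 20 (adjusted p up to 0.102) and for Hif1a without array 1, 2, 3, 16, 18, 19 or 20 (adjusted p up to 0.166).

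Among 29 genes of the Nrf2 response and glutathione metabolism 3 rose and 2 fell (17.2% called, against 3.63%). The cystine importer Slc7a11 rose by 0.70 ± 0.19 (adjusted p = 0.0394), the glutathione transferase Gstm1 by 0.72 ± 0.18 (adjusted p = 0.0238) and Gclm, the modifier subunit of the enzyme that limits glutathione synthesis, by 0.46 ± 0.11 (adjusted p = 0.0196). Ephx1, an epoxide hydrolase, was at 5.88, 6.12, 6.21, 6.46 and 6.49 against 6.78, 6.86, 6.96, 6.92 and 6.98 and fell by 0.67 ± 0.14 (adjusted p = 0.0111), while with smooth muscle level as a covariate the difference was -0.64 and did not pass (adjusted p = 0.0599). The thioredoxin reductase Txnrd1 fell by 0.52 ± 0.11 (adjusted p = 0.0118). Among these genes the call depended on single arrays and was lost for Slc7a11 without array 1, 2, 3, 16, 18, 19 or 20 (adjusted p up to 0.157), for Gstm1 without array 2, 3 or 18 (adjusted p up to 0.0758), for Gclm without array 2, 16, 18 or 19 (adjusted p up to 0.058) and for Txnrd1 without array 1 (adjusted p up to 0.0518).

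In the cytochrome list, which holds enzymes that can activate nitrosamines, 1 of 22 genes rose and 3 fell (18.2% called, against 3.63%). Cyp3a9 rose by 0.58 ± 0.15 (adjusted p = 0.0312). Cyp1b1 was at 6.25, 5.49, 6.88, 6.76 and 6.81 in antimiR arrays and at 7.16, 7.97, 7.62, 7.56 and 7.73 in ZS arrays and fell by 1.17 ± 0.24 (adjusted p = 0.00689). Cyp2c11, a male-specific liver form, fell by 0.69 (adjusted p = 0.0312) at low levels, and the reductase Cyb5r3 fell by 0.60 (adjusted p = 0.0118). Of 28 genes of retinoid and alcohol metabolism 2 fell (7.14%). Adh1c, an alcohol dehydrogenase that also oxidizes retinol, was at 7.27, 5.66, 6.96, 8.63 and 8.31 against 9.23, 9.15, 8.61, 10.43 and 8.40, a fall of 1.80 ± 0.49 (adjusted p = 0.0371). Aldh1a2, which makes retinoic acid, fell by 0.99 (adjusted p = 0.0495). With smooth muscle level as a covariate the difference of Adh1c was -0.77 (adjusted p = 0.212) and that of Aldh1a2 -0.47 (adjusted p = 0.328). The call was lost for Cyp3a9 without array 1, 2, 16, 17, 19 or 20 (adjusted p up to 0.122), for Cyp2c11 without array 1, 2, 3, 16, 17 or 20 (adjusted p up to 0.105), for Cyb5r3 without array 2 (adjusted p up to 0.0522), for Adh1c without array 1, 2, 3, 16, 17 or 19 (adjusted p up to 0.15) and for Aldh1a2 without array 1, 2, 3, 5, 16, 18, 19 or 20 (adjusted p up to 0.186).

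Of 28 cornified envelope and differentiation genes 1 passed, Klk6 (3.57%, against 3.63% of all genes). At an unadjusted p under 0.05, 9 of the 28 differed, 5 higher and 4 lower, against 18.9% of all genes. Members lay on both sides of ZS around the list's median of 0.011. Among those that did not pass after adjustment, Sprr1b, a precursor of the cornified envelope, differed by 1.57 (adjusted p = 0.0643), Cdsn, an adhesion protein of cornified cells, by 0.62 (0.0697) and the desmosomal cadherin Dsc2 by -0.62 (0.06). Krt13, a keratin of differentiated oesophageal cells, was at 14.01 to 14.09 in antimiR arrays and 14.02 to 14.09 in ZS arrays, a difference of -0.011 (adjusted p = 0.916). Of 7 suprabasal keratins 0 were called by limma (1 at an unadjusted p under 0.05), and of 22 uroplakin, mucin and simple epithelial genes 0 (2 unadjusted). The basal keratin Krt14 differed by -0.20 (adjusted p = 0.631). Of 18 basal and stress keratins and hemidesmosome genes 1 passed (5.56%), Col17a1, a collagen that anchors basal cells. It was at 9.65, 9.66, 10.41, 10.28 and 10.45 in antimiR arrays and at 10.96, 10.78, 10.70, 10.94 and 10.84 in ZS arrays and fell by 0.76 ± 0.16 (adjusted p = 0.0108), as far as in untreated ZD rats (-0.73). Its call was lost with smooth muscle level as a covariate (-0.69, adjusted p = 0.0654) and in the fit on the 10 arrays alone.

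Epithelial proteases and their inhibitors held the second largest share of called members, 5 of 23 (21.7%, against 3.63%). Plat, the tissue plasminogen activator, was at 10.04, 10.48, 8.62, 8.03 and 7.83 in antimiR arrays and at 6.46, 7.91, 7.36, 6.38 and 7.32 in ZS arrays. Arrays 1 and 2 were highest and array 5 lay just below the highest ZS array. Plat rose by 1.92 ± 0.42 (adjusted p = 0.0118), and its relative Plau, the urokinase, by 0.74 ± 0.18 (adjusted p = 0.0227). Tmprss11d rose as given above, and the stefin Stfa2l2, a cysteine protease inhibitor, rose by 1.64 ± 0.46 (adjusted p = 0.0412). Cst6, a cystatin of the cornified layer, fell by 0.66 ± 0.18 (adjusted p = 0.036). The call was lost for Plat without array 1 or 2 (adjusted p up to 0.0522), for Plau without array 1, 2, 18 or 20 (adjusted p up to 0.101), for Stfa2l2 without array 1, 2, 16, 17, 18 or 20 (adjusted p up to 0.166) and for Cst6 without array 1, 2, 16, 17, 18 or 19 (adjusted p up to 0.137).

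Of 15 EGF family ligands and receptors 2 rose (13.3%, against 3.63% of all genes). Ereg, the ligand epiregulin, was at 8.13, 8.08, 7.99, 7.99 and 7.47 in antimiR arrays and at 6.85, 7.05, 7.09, 6.67 and 6.92 in ZS arrays. The groups were apart, and Ereg rose by 1.02 ± 0.23 (adjusted p = 0.0121). Egf itself was at 9.34, 9.95, 9.52, 9.20 and 7.84 against 8.13, 7.64, 7.79, 7.89 and 7.5 and rose by 1.38 ± 0.37 (adjusted p = 0.036), with array 5 inside the ZS range. Of 27 genes of BMP, activin and TGF-beta signalling 1 fell (3.7%), the ligand Bmp6 described below. Of 30 ion transport genes 1 passed (3.33%): Atp13a5, a P-type ATPase, with a rise of 1.84 ± 0.51 (adjusted p = 0.0423). With smooth muscle level as a covariate the difference of Ereg was 0.78 and did not pass (adjusted p = 0.099). The call was lost for Egf without array 1, 2, 3, 4, 16, 17, 18, 19 or 20 (adjusted p up to 0.132) and for Atp13a5 without array 1, 2, 16, 18, 19 or 20 (adjusted p up to 0.17).

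Proliferation genes had mostly higher means in antimiR rats, but none of these differences passed. Of 41 cell cycle and replication genes 29 were above 0, and their median difference was 0.60 against -0.0041 over all genes. At an unadjusted p under 0.05, 11 differed, 9 of them higher, against 18.9% of all genes. By limma 0 were called as higher. The mean level of the list was 7.25 to 7.86 in antimiR arrays and 7.21 to 7.43 in ZS arrays. Mki67, a marker of cycling cells, was at 9.51, 9.26, 8.41, 9.15 and 9.21 against 8.43, 8.62, 7.96, 8.50 and 8.53, a difference of 0.70 ± 0.43 (adjusted p = 0.399). The 1 member that passed was Ccnd2, a D-type cyclin, at 8.39, 8.60, 9.87, 9.59 and 9.44 against 10.02, 10.22, 10.44, 10.15 and 10.39, which fell by 1.06 ± 0.24 (adjusted p = 0.0141), a call lost without array 1 or 2 (adjusted p up to 0.064). Of 17 genes of the p53 and damage response 2 rose, Gadd45a and Gadd45b (11.8%, against 3.63% of all genes).

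Genes of fatty acid uptake and lipid metabolism rose in 3 of 31 cases and fell in 1 (12.9% called, against 3.63%). Cpt1a, which controls entry of fatty acids into mitochondria, was at 9.63, 9.41, 9.45, 9.58 and 9.33 in antimiR arrays and at 8.76, 9.01, 9.14, 9.10 and 8.58 in ZS arrays. Every antimiR array was higher, and Cpt1a rose by 0.56 ± 0.13 (adjusted p = 0.0135), against 0.18 in untreated ZD rats (adjusted p = 0.375). The direct test between antimiR and untreated ZD rats did not call Cpt1a. Its partner on the inner membrane, Cpt2, rose by 0.46 ± 0.10 (adjusted p = 0.00885), a call lost with smooth muscle level as a covariate (0.42, adjusted p = 0.0627) and in the fit on the 10 arrays alone. Angptl4 rose as given above, and the fatty acid elongase Elovl6 fell by 0.58 ± 0.15 (adjusted p = 0.0319), while the dimmer probe set of Elovl6 gave -0.20. Of 35 respiratory chain genes 3 fell (8.57%), all complex I subunits: Ndufa5 by 0.31 (adjusted p = 0.00796), Ndufa9 by 0.21 (adjusted p = 0.0487) and Ndufs3 by 0.22 (adjusted p = 0.05). The call was lost for Elovl6 without array 1, 2, 3, 16, 17 or 19 (adjusted p up to 0.13), for Ndufa9 without array 1, 2, 3, 5, 16, 17, 18, 19 or 20 (adjusted p up to 0.127) and for Ndufs3 without array 1, 2, 3, 5, 16, 17, 18, 19 or 20 (adjusted p up to 0.113).

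Among the lists of other cell types, limma called 0 members for endothelium (0 of 19 at an unadjusted p under 0.05), lymphocytes (0 of 23), macrophages (3 of 25), neutrophils and mast cells (1 of 18), erythroid cells (1 of 6), nerve and glia (3 of 17) and mucous glands (1 of 15), beside both muscle lists given above. Of 25 fibroblast and matrix genes 1 was called (4%, against 3.63% of all genes), Lox, which rose. At an unadjusted p under 0.05, 11 of the 25 differed, 10 of them lower, against 18.9% of all genes. The list's median was -0.49, with 22 of 25 below 0. Of 12 adipocyte genes 1 was called (8.33%), the lipase Lipe. It fell by 0.75 (adjusted p = 0.0221) on the brighter probe set, while the other one gave 0.20. This call was lost without array 1, 2, 16 or 18 (adjusted p up to 0.0967), with the mean of all probe sets and with smooth muscle level as a covariate (-0.71, adjusted p = 0.0959). The macrophage list had a median of -0.19 and the lymphocyte list one of 0.022. Medians over the lists are descriptions and carry no test.

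The genes that set untreated ZD apart from ZS most strongly were then followed into the antimiR rats. The 10 largest increases of untreated ZD rats, from 2.42 to 4.56 log2 units, ran from -0.013 to 1.84 in antimiR rats against the same ZS arrays, with a median of 0.93. Of these 10, Stfa2l2 and Atp13a5 were called against ZS. The 10 largest decreases of untreated ZD rats, from -3.88 to -2.35, ran from -1.89 to -1.13 in antimiR rats, and 0 were called by limma, although all 10 had an unadjusted p under 0.05. All 20 differences were smaller in antimiR rats. The 20 genes were picked for the size of their untreated ZD difference, so a smaller difference elsewhere is partly built into the choice, and the direct test is the one between antimiR and untreated ZD rats. It called 4 of the 10 increases, Car2, Ptgs2, Krt6c and Krt17, and 0 of the 10 decreases, of which 7 had an unadjusted p under 0.05.

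Car2, a carbonic anhydrase, was at 8.58, 10.33, 6.49, 5.91 and 5.84 in antimiR arrays and at 4.98, 5.64, 5.62, 7.26 and 5.33 in ZS arrays. Arrays 1 and 2 stood above all ZS arrays and arrays 3 to 5 within the ZS range. The difference from ZS was 1.66 ± 0.65 (adjusted p = 0.151) and that from untreated ZD -2.90 ± 0.65 (adjusted p = 0.0292). The stress keratins Krt6c and Krt17 differed from ZS by 0.92 (adjusted p = 0.355) and 0.21 (adjusted p = 0.898), and from untreated ZD by -2.65 (adjusted p = 0.0191) and -3.01 (adjusted p = 0.02). Ptgs2 differed from untreated ZD by -3.88 ± 0.68 (adjusted p = 0.0137). Serpinb3, a protease inhibitor of squamous cells, was at 7.56, 10.08, 5.66, 5.46 and 4.35 in antimiR arrays and at 4.87, 4.69, 5.65, 6.30 and 4.99 in ZS arrays, again with array 2 by far the highest.

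Aox4, an aldehyde oxidase that can oxidize retinal, was at 5.25, 5.60, 9.16, 9.92 and 9.98 in antimiR arrays and at 10.85, 9.74, 8.40, 10.24 and 8.36 in ZS arrays. Arrays 1 and 2 were low and arrays 3 to 5 were within the ZS range, so the difference of -1.53 ± 0.73 did not pass (adjusted p = 0.251). Fxyd4, a regulator of the sodium pump, was at 8.56, 6.5, 9.71, 9.54 and 9.66 against 10.57, 10.59, 10.42, 10.49 and 9.94 and did not pass although the groups did not overlap (-1.61, adjusted p = 0.11). Myh11, Cnn1, Myl9 and Actg2, contractile proteins of smooth muscle, made up 4 of the 10 decreases, with antimiR differences of -1.16, -1.28, -1.33 and -1.13. The count of genes called between antimiR and untreated ZD rats, 92, ranged from 9 to 379 when 1 array was left out (9 without array 4 or 12, 12 without 3, 20 without 5, 27 without 14, 52 without 1, 258 without 15 and 379 without 2).

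**Figure D4:**
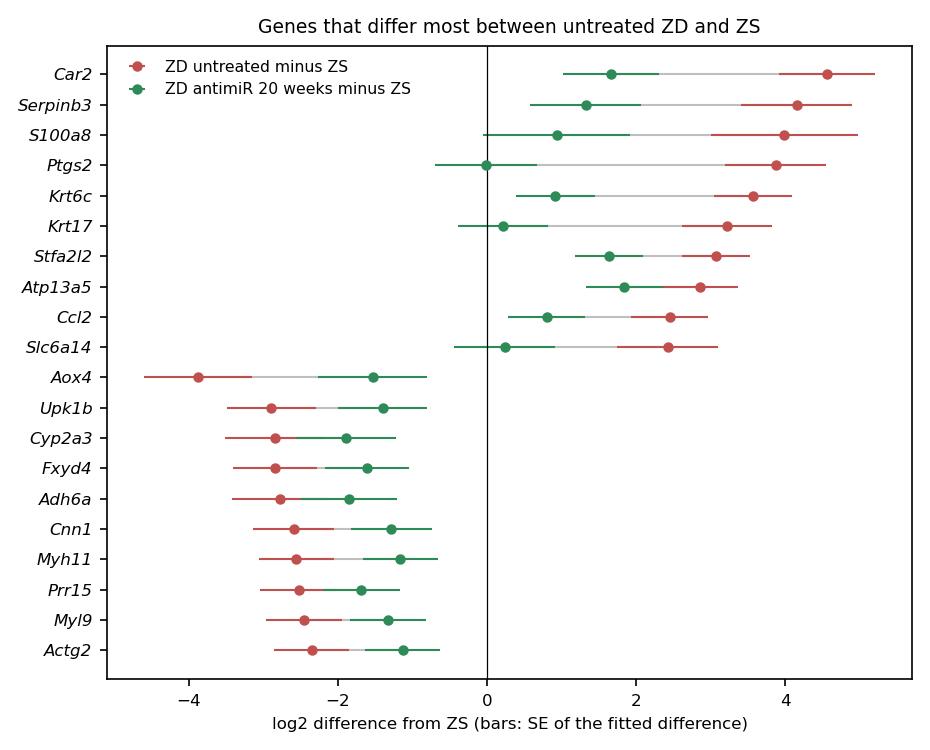
Log2 differences from ZS (x axis, bars are SE of the fitted difference) of the 10 largest increases and 10 largest decreases of untreated ZD rats (red) and the same genes in 20-week antimiR rats (green), which share the ZS arrays. All 20 green points lie nearer to 0 than the red ones, and Ptgs2 lies at 0.

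A set of 6 genes was called both against ZS and against untreated ZD. Of these, 3 lay between the other groups. Bmp6, a ligand made by suprabasal epithelium, was at 6.35, 6.42, 7.01, 7.04 and 7.28 in antimiR arrays, at 7.91, 7.42, 7.74, 7.65 and 7.71 in ZS arrays and at 6.14, 6.11, 5.65, 5.59 and 6.31 in untreated ZD arrays. It was 0.86 below ZS (adjusted p = 0.00689) and 0.86 above untreated ZD (adjusted p = 0.0212), and in the fit on the 10 arrays alone it did not pass against ZS (adjusted p = 0.0529). The other probe sets of Bmp6, all dimmer, gave 0.15, -0.09 and -0.42 against ZS. Cxcl14 was 0.91 above ZS and differed from untreated ZD by -1.12 (adjusted p = 0.028), and Slc7a11 was 0.70 above ZS and differed from untreated ZD by -0.82 (adjusted p = 0.0412).

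The other 3 were set apart from both groups in the same direction. Calr, a calcium-binding chaperone of the endoplasmic reticulum, was at 10.67, 10.65, 10.72, 10.70 and 10.48 in antimiR arrays, at 10.96, 10.83, 11.04, 11.04 and 11.01 in ZS arrays and at 11.08, 11.02, 10.90, 11.04 and 11.02 in untreated ZD arrays. It was lower than ZS by 0.33 ± 0.08 (adjusted p = 0.0205) and differed from untreated ZD by -0.37 ± 0.08 (adjusted p = 0.0278). Usp25, a deubiquitinase, was 0.32 above ZS (adjusted p = 0.0349) and 0.37 above untreated ZD (adjusted p = 0.0412). Its dim second probe set gave 0.0072 against ZS. Spmip6, known from sperm microtubules, read low throughout and differed by -0.28 (adjusted p = 0.0417) and -0.33 (adjusted p = 0.0421). Both tests share the antimiR arrays, so they are not independent of each other. The call against ZS was lost for Calr without array 2 or 18 (adjusted p up to 0.0522), for Usp25 without array 1, 3, 4, 16, 18 or 19 (adjusted p up to 0.0988) and for Spmip6 without array 1, 2, 3, 4, 16, 18, 19 or 20 (adjusted p up to 0.114).

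The knockout rats gave a diet comparison on arrays that none of the values above used: 6 ZD against 4 ZS rats, all without miR-31. It called 3049 genes (21.4%), 1347 higher (9.47%) and 1702 lower (12%). Of the 516 genes called in antimiR rats, 244 were called here as well, which is 47.3% of the 516 and 8.00% of the 3049. The direction was the same for 236 (139 higher, 97 lower) and opposite for 8. At any p, 433 of the 516 (83.9%) had the same direction, against 62.0% of all genes, and the 2 sets of differences correlated across genes at r = 0.72 over the 516 and 0.43 over all genes (genes are not independent replicates). Without array 1 the count of 236 was 86, without array 2 it was 82, without 16 it was 104, without 18 it was 137 and without 20 it was 153. With smooth muscle level as a covariate it was 32. The smooth muscle list was lower on ZD in these rats too, with a median of -1.24 and 7 of 15 genes called. The covariate thus moved with the group in both comparisons. The part of smooth muscle level in the shared genes was therefore not tested apart from that of the group.

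The genes with the smallest adjusted p in both comparisons rose and fell alike. Cpox, an enzyme of haem synthesis, was at 11.70, 11.58, 11.60, 11.33 and 11.48 in antimiR arrays and at 10.90, 10.94, 10.84, 11.05 and 10.87 in ZS arrays, and at 11.04, 10.64, 10.64, 10.80, 10.78 and 10.85 in ZD knockout and 10.44, 10.20, 10.08 and 10.38 in ZS knockout arrays. It rose by 0.62 ± 0.085 (adjusted p = 0.000505) and by 0.52 ± 0.086 (adjusted p = 0.000159). Gadd45b rose by 1.1 and, in knockout rats, by 0.95 ± 0.16 (adjusted p = 0.000146). Stx11, a syntaxin of vesicle fusion, was at 7.74, 7.88, 7.72, 7.55 and 7.41 against 7.11, 6.84, 6.92, 6.77 and 6.62 and, in knockout rats, at 7.56, 7.14, 7.07, 7.12, 7.43 and 7.28 on ZD against 6.02, 6.08, 6.24 and 6.39 on ZS. It rose by 0.81 ± 0.12 and by 1.08 ± 0.13 (adjusted p = 0.00113 and 1.95e-06).

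Ifrd1, a stress-induced transcriptional co-regulator, rose by 1.01 and 0.93, and Rps6ka6 by 1.12 and 1.26. The epoxygenase Cyp2j4 rose by 0.79 and 1.1, Chac2, which degrades glutathione, by 0.86 and 0.76, and Pdk3, which turns off pyruvate dehydrogenase, by 0.73 and 0.54. Cd99, a surface adhesion protein, fell by 0.32 and 0.29, and Sh2b3, an adaptor that dampens cytokine signalling, by 0.60 and 0.68. Between antimiR and ZS rats the second, dimmer probe set gave -0.054 for Cd99 and 0.13 for Chac2. In antimiR rats all 10 genes kept an adjusted p under 0.05 in the 10 fits with 1 array left out and in the 10 other settings, and the highest adjusted p with an array left out was 0.0136 for Sh2b3 and 0.0127 for Chac2.

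All 11 clock genes called in antimiR rats had the same direction in knockout rats, and 4 were called there too: Clock (0.61, adjusted p = 0.000113), Nr1d2 (-0.74, 0.00745), Tef (-0.63, 0.0137) and Dbp (-1.37, 0.0274). Of all 516 called genes, 83.9% had the same direction there and 47.3% were called there in either direction, so 4 of 11 is not above that share. Dbp was at 7.62, 8.06, 7.77, 8.73, 8.19 and 7.55 in ZD knockout and at 9.09, 9.11, 9.68 and 9.54 in ZS knockout arrays. Per1 (-0.55, adjusted p = 0.0351) and Nr1d1 (-0.90, 0.0207) were called as lower in the knockout rats and did not pass in antimiR rats. The difference between the antimiR and knockout diet differences was called for 366 of all genes (2.57%) and for 0 of the 17 clock genes (limma, 6 at an unadjusted p under 0.05).

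**Figure D5:**
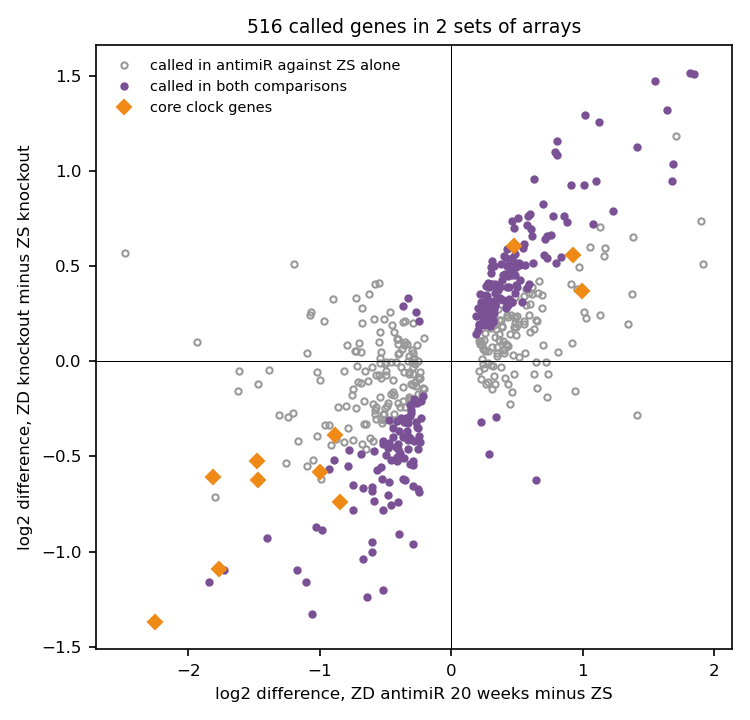
Log2 difference between 20-week antimiR and ZS rats (x axis) against that between ZD and ZS knockout rats (y axis) for the 516 called genes. The differences share no arrays, while the calls share a pooled spread. Filled points were called in both comparisons and diamonds are the 11 called clock genes. Most points lie at the lower left and upper right, and Klk6 is the far left point above 0.

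Some genes differed between the 2 settings by a test of the difference itself, a test added after the data were seen. Klk6 fell by 2.48 in antimiR rats and differed by 0.57 between ZD and ZS knockout rats, where it was at 7.90, 8.40, 8.92, 8.78, 8.41 and 8.04 on ZD and at 7.82, 8.31, 7.15 and 8.08 on ZS. The difference of the differences was -3.05 ± 0.82 (adjusted p = 0.0409). Ccnd2 fell by 1.06 in antimiR rats, whereas its mean was 0.26 higher on ZD than on ZS in knockout rats, a value that did not pass there (adjusted p = 0.498). The difference of the differences was -1.32 ± 0.34 for Ccnd2 (adjusted p = 0.0367). Smpd1 fell by 1.19 in antimiR rats and its mean was 0.51 higher on ZD in knockout rats (adjusted p = 0.168), a difference of -1.70 ± 0.37 (adjusted p = 0.0122). Elovl6 fell by 0.58 in antimiR rats and its mean was 0.40 higher on ZD in knockout rats (adjusted p = 0.0617), a difference of -0.98 (adjusted p = 0.0147). Calr was lower by 0.33 in antimiR rats and higher by 0.33 in knockout rats (adjusted p = 0.00492), a difference of -0.67 ± 0.11 (adjusted p = 0.00304). The other 7 genes called in opposite directions were Gpcpd1, Jkamp, Mrpl46, Pdzd8, Surf2, Tchp and Tmem205.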

How the data were processed

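RNA from the oesophageal epithelium of 30 rats was measured on Affymetrix rat arrays, and 10 arrays make up the main comparison. The authors deposited log2 expression values per probe set, made with Affymetrix Expression Console and RMA per the submitters' processing notes; the versions are not given in the sources used here. RMA's quantile step sets each array to a common distribution, and the knockout arrays appear to have been normalized apart from the others. The number of arrays limits the precision.

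Of 31099 probe sets, 20826 carried 1 symbol, 436 several, 9780 none that was used and 57 were controls; 20758 matched by gene ID. Each of 14217 genes was represented by its probe set of highest mean over all arrays. Groups followed the array titles. In limma 3.58.1 (R 4.3.3), 1 model with a coefficient for each of 6 groups covered the 30 arrays, followed by eBayes and Benjamini-Hochberg adjustment over all genes of a comparison. A gene was called at an adjusted p under 0.05. The fit was tested on simulated data. The labels number each array as a separate sample, and p-values measure the spread between these samples.

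The comparison, its 36 gene lists and the rule for named genes were chosen with earlier results of these data known. The rule took the 15 top increases and 15 top decreases by size among called genes without overlap (no locus-only symbols), at most 4 members per list by adjusted p, up to 10 genes called against both ZS and untreated ZD, the 10 largest increases and 10 largest decreases of untreated ZD against ZS, up to 10 genes called in both antimiR and knockout comparisons, and 13 fixed genes. The clock genes beyond this rule and Lats2 were taken up after their values were seen. Alternatives were a fit on the groups compared, a fit on the 20 unedited arrays, quantile normalization, centring on array medians, a filter that drops the dimmest 30% of genes, trended robust eBayes, array weights, the mean of all probe sets or all of them, a covariate of smooth or of skeletal muscle level, and the omission of each array in turn. Sequences came from RefSeq tables of assembly GRCr8: 15 of the 17 clock genes matched a promoter.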

Additional observations from a re-analysis of the deposited data

Results flagged for a closer look

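Among 310 groups of 5 arrays tested for a single array far from the rest (gene levels and list means), 22 (7.10%) held one, and chance alone gives about 1 in 20. No cause was tested for any of them. In antimiR rats, array 4 stood high for Bhlhe41 (6.99), array 5 was high for Mt1 (5.35) and low for Ereg (7.47), Calr (10.48) and Cyp2j4 (10.23), array 1 was low for Gclm (10.26) and Krt14 (11.73) and high for the erythroid list mean (4.66), and array 2 was high for the NF-kB list mean (6.62). In ZS rats, array 19 accounted for 6 of them: low Bhlhe40 (8.15), high Sod3 (8.81), high Bap1 (8.71), high Car2 (7.26), a high suprabasal keratin mean (11.73) and a low erythroid mean (4.37). Array 18 was high for Dpyd (8.14) and Slc6a14 (4.496) and low for Mki67 (7.96), array 20 low for Runx1t1 (5.11) and Fxyd4 (9.94), array 17 high for Ptgs2 (3.26) and array 16 low for Chac2 (7.68).

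The antimiR difference from ZS was unlike the diet difference of knockout rats for 7 of the genes discussed above, by limma on the difference of both differences. The difference of both was -3.05 for Klk6, -1.70 for Smpd1, -1.32 for Ccnd2, -0.98 for Elovl6, -0.67 for Calr, -0.35 for Bap1 and -0.33 for Ndufa9. The adjusted p was 0.0409, 0.0122, 0.0367, 0.0147, 0.00304, 0.0239 and 0.037 in that order. Among genes taken by the naming rule but not discussed above, Il1rn (-1.41, adjusted p = 0.00714) and Egfl7 (0.54, 0.0284) also passed this test. The rats of both sets differ in genotype, in injection and in the experiment they belong to, which cannot be told apart.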

How the results depend on the processing

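No paired analysis was possible because the array numbers are unique to each rat. In the fit on the groups compared, calls fell to 140 (70 higher, 70 lower), the clock genes to 6, the genes shared with knockout rats to 62 and the antimiR against untreated ZD calls to 21. With smooth muscle level as a covariate these were 117 (49 higher, 68 lower), 6, 32 and 28, and the diet comparisons called 149 genes in untreated and 1458 in knockout rats. Array weights gave 557 calls for antimiR against untreated ZD. With 1 array left out, the main count ran from 166 to 690 (higher 83 to 337, lower 83 to 353), the clock count from 7 to 11, the shared count from 82 to 285, untreated ZD against ZS from 1191 (without array 14) to 2424, antimiR against untreated ZD from 9 to 379 and the knockout diet comparison from 1566 (without array 32) to 3244. The fit on unedited arrays gives no knockout value. Under the remaining alternatives every one of these counts stayed within 1.5 times its value, and no named gene changed sign among called differences. Of 85 called genes among the 210 named or discussed, 41 were called in all 10 fits with 1 array left out, 26 in all 10 other settings and 33 with the smooth muscle covariate. Of the 125 uncalled, 30 were called in at least 1 alternative. With 5 arrays a group, 0.19 log2 units was the smallest difference called, and genes with a wide spread between arrays needed far more.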
